A study of Mus musculus with 186 samples.

Results

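Skin taken 42 days after the first bleomycin injection was compared with skin from mice injected with phosphate-buffered saline (PBS) over the same period. The libraries were those whose titles name skin, day 42, oral vehicle and either bleomycin (BLM) or PBS, 8 in each group, 16 of 93 skin libraries in a series that holds as many lung libraries. Both groups were female C57BL/6 mice about 12 weeks old, shaved between the shoulder blades and injected under the skin at 2 marked sites, 5 times a week for 2 weeks, with bleomycin at 10 mg/kg/day or with PBS. Both then had oral vehicle, the carrier of an ALK5 inhibitor that neither group received, starting on day 12 and ending on day 27. Skin was collected by punch biopsy on day 42, a day that the series' design text assigns to the study of resolution, and the skin libraries of all 12 groups, from days 7, 14, 21, 28 and 42, shared a fit. Injected shaved skin is a local and time-limited model, the mice were of 1 strain and 1 sex, and a punch holds epidermis, hair follicles, dermis, fat and at times the muscle below.

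Bleomycin breaks DNA, and repeated injection into mouse skin gives inflammation followed by dermal fibrosis, a thickening of the dermis with cross-linked collagen made by fibroblasts. Fibroblasts that have taken up a contractile, matrix-making state are called myofibroblasts and carry smooth muscle actin, and the signal best known to induce them is TGF-beta. Cells with lasting DNA damage can leave the cell cycle for good, a state called senescence, in which the cell cycle inhibitors encoded by Cdkn2a are commonly raised. Back skin of mice also passes through hair cycles, in which follicles grow, make pigmented hair shafts and regress, and the transcripts of hair keratins and pigment cells rise and fall with them.

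Levels are given as CPM, counts of a gene scaled to a common library size, and differences as the log2 fold change of bleomycin over PBS with its standard error, so that 1 is a doubling. A gene was called when the p-value of edgeR's quasi-likelihood test, adjusted over all tested genes by the method of Benjamini and Hochberg, was below 0.05. The labels number the libraries without saying that each came from a separate mouse, so p-values measure the spread between these libraries. In whole skin, fewer cells of a type and less RNA per cell cannot be told apart, and the lists named after cell types below are marker transcripts, not cell numbers.

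Each library held between 16.4 and 24.7 M counts (M for mega), and each group had 5 libraries on plate 1 and 3 on plate 2. The epidermal keratin Krt14 stood at 1221 to 3121 CPM and the alveolar marker Sftpc at 1.36 to 22.2 CPM in these libraries, so a low level of this lung transcript was counted in skin. Hair shaft keratins divided the PBS libraries. Their summed level was 24.3, 268 and 294 CPM in PBS R2, R4 and R6, 14894 and 16202 CPM in R1 and R3, and 39378 to 63993 CPM in R5, R7 and R8, against 2205 to 37232 CPM in bleomycin skin. PBS R5, R7 and R8 also had the highest melanocyte sums, 1112 to 1382 CPM against 168 to 416 CPM in the other PBS libraries, and the lowest Schwann cell sums. The sum of 25 skeletal muscle genes ran from 1748 to 41114 CPM in bleomycin skin and from 1292 to 16015 CPM in PBS skin. The part of hair and muscle content in each result was examined only by a term for it in the fit and by leaving out libraries, and counts that moved most with these are given beside the results.

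Of 15825 genes tested, 1620 were called (10.2%), 835 of them higher after bleomycin (5.28%) and 785 lower (4.96%). Larger changes were mostly rises: 244 called genes were at least 2-fold higher and 65 at least 2-fold lower. The median log2 fold change over all genes was -0.04. In 53 genes (0.335%) every bleomycin library was above every PBS library, and in 23 genes (0.145%) every bleomycin library was below. Taken plate by plate, 1618 of the 1620 (99.9%) moved in 1 direction on both plates. These genes were called on the same libraries, so a high share was built in and is no separate check. The share over all genes was not computed. Fitted alone, plate 1 gave 8 calls and plate 2 gave 7. Bleomycin R3 lay nearest to PBS skin most often, with the lowest bleomycin level in 548 of the 835 genes that rose and the highest in 369 of the 785 that fell. The count of calls moved with the libraries used: it was 387 with the 2 groups fitted alone, 821 without PBS R8, 879 without PBS R7, 941 without PBS R5, 2639 without PBS R3 and 2723 without PBS R2. With the hair keratin sum as a term it was 5165, which held 1618 of the 1620 genes, and without PBS R5, R7 and R8 together it was 557, which held 371.

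**Figure D1:**
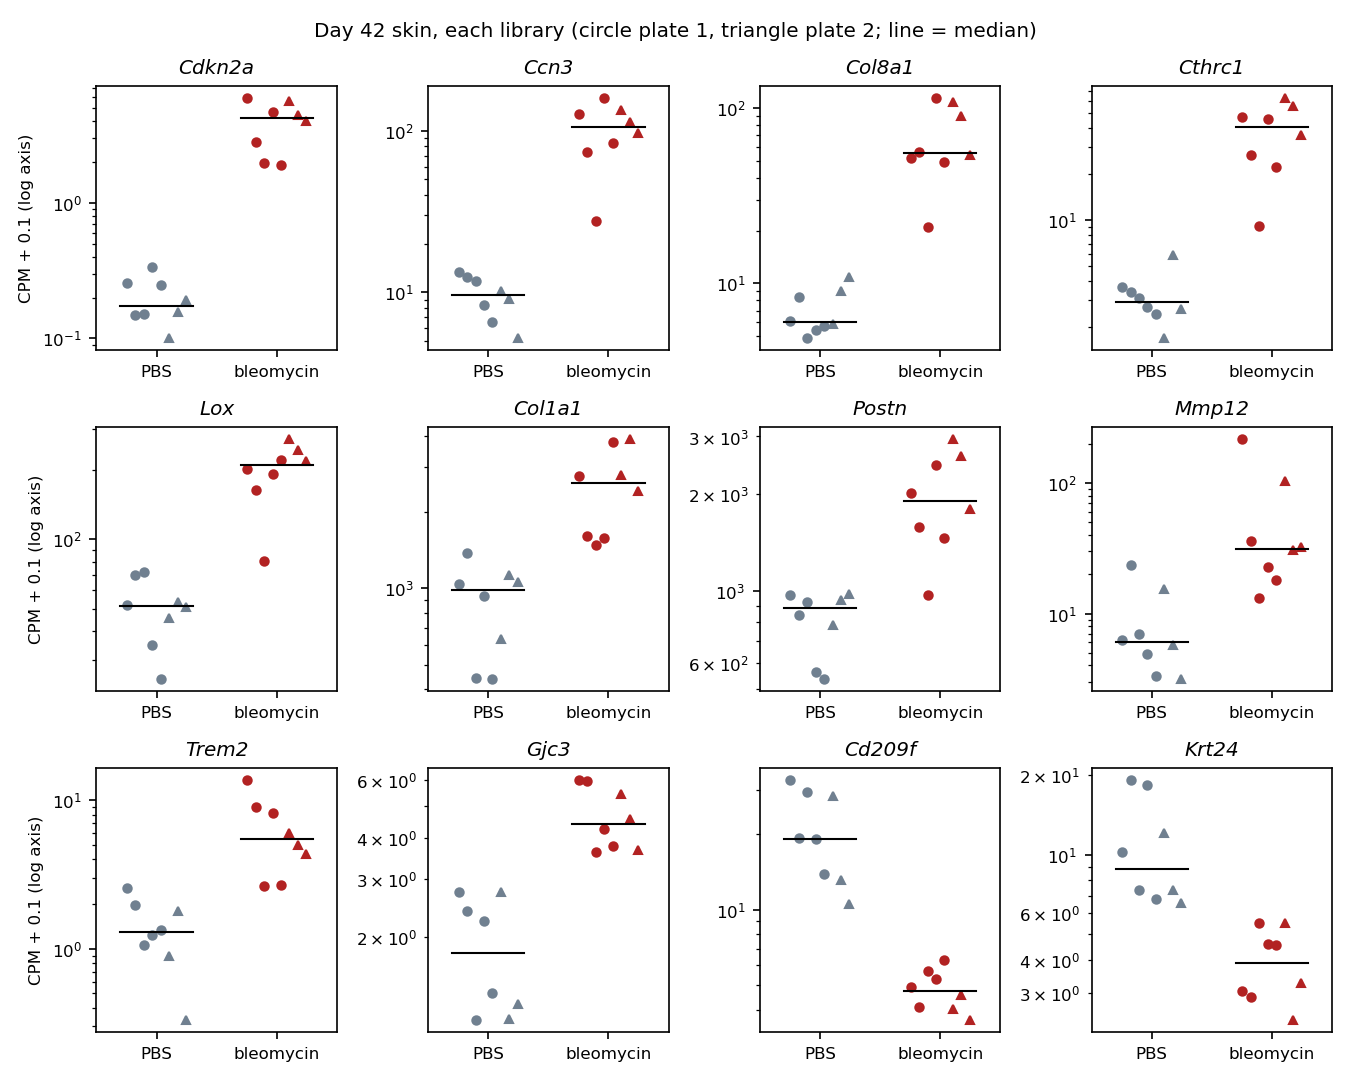
CPM plus 0.1 on a log axis for 12 genes in each of the 16 libraries, bleomycin beside PBS, with circles for plate 1, triangles for plate 2 and a line at each group's median. Cdkn2a, Ccn3, Col8a1, Cthrc1, Lox and Col1a1 are higher in every bleomycin library than in any PBS library, and Cd209f and Krt24 are lower in every one.

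Cdkn2a had the largest fitted rise among the genes named here. The locus makes p16-INK4a, which blocks the kinases that start the cell cycle, and p19-ARF, which stabilises p53. Before scaling, bleomycin R1 to R8 held 105, 54, 37, 103, 31, 103, 77 and 78 counts of it, 588 in all, and PBS R1 to R8 held 4, 1, 1, 5, 3, 0, 1 and 2, 17 in all. Every bleomycin library was far above every PBS library, and 1 PBS library had no count. Scaled, the level was 1.81 CPM at the lowest, 4.15 at the median and 5.85 at the highest in bleomycin skin, against 0, 0.0742 and 0.236 CPM in PBS skin. The log2 fold change was 5.17 ± 0.51 (SE, n = 8 against 8, adjusted p = 7.96e-12), a fitted value that leans on the few PBS counts. On plate 2 alone, with 3 libraries a group, the adjusted p was 0.0523 at a log2 fold change of 6.39. Over the earlier days the Cdkn2a difference was 0.97 on day 7, where it was not called, 2.51 on day 14, 4.10 on day 21 and 5.24 on day 28.

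Cdkn2a lies on the minus strand of chromosome 4 at 89274471 to 89294653 (GRCm38), with 2 annotated transcripts of 3 exons each that begin at separate promoters, 1 for each protein. The deposited counts sum both, so they do not say which start was used. Both 300-base windows around the starts (250 bases before, 50 after, RefSeq, GRCm38.p6) are shown because the start is the feature the counts leave unresolved; CpG dinucleotides are in capitals.
Cdkn2a, start of the longer transcript, chr4:89294570-89294869, minus strand: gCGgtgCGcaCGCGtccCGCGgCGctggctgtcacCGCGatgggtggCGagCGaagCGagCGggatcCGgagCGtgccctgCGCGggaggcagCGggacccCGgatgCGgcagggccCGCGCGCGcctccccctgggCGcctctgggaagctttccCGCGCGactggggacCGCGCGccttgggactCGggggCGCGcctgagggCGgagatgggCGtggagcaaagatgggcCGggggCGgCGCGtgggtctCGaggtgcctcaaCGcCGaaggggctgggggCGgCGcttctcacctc
Cdkn2a, start of the shorter transcript, chr4:89282143-89282442, minus strand: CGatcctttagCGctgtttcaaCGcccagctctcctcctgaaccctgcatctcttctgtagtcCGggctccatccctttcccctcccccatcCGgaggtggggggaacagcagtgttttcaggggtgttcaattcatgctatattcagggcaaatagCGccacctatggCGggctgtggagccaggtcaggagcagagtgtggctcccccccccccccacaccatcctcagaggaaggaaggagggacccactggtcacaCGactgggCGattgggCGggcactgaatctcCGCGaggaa
The first window holds 45 CpG at 77% GC, a number reached by 1.93% of 32851 mouse promoter windows, and the other holds 12 CpG at 60.3% GC, a number reached by 39.6% of them.

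Other inhibitors of the cell cycle were not called higher. Of 7 INK4 and CIP genes, Cdkn2a alone rose, and Cdkn2d (log2 fold change -0.38, adjusted p = 0.00866) and Cdkn2c (-0.29, adjusted p = 0.0108) fell. Cdkn2b, the neighbour of Cdkn2a, stood at 0.33 (adjusted p = 0.137), and Cdkn1a, the p53 target that encodes p21, at 0.17 ± 0.09 (adjusted p = 0.164) after 0.95 on both day 7 and day 14. Of 31 p53 targets, 25 had risen on day 14, when 31.5% of all genes had. On day 42, 6 rose and 0 fell, against 5.28% and 4.96% of all genes, with a median log2 fold change of 0.12 against -0.04 over all genes. Those that rose included Eda2r, a receptor of the TNF receptor family, Zmat3, an RNA-binding protein (0.45 ± 0.09, adjusted p = 0.000217), Ccng1, cyclin G1 (0.44 ± 0.14, adjusted p = 0.0281), and Gdf15, a stress-induced cytokine (1.82 ± 0.51, adjusted p = 0.013). Eda2r was at 17.3, 29.3 and 39.3 CPM (lowest, median, highest) in bleomycin skin and 4.93, 12.9 and 15.1 CPM in PBS skin, with no overlap, and its log2 fold change was 1.33 ± 0.23 (adjusted p = 3.15e-05). The p53 count was 3 without any of PBS R5, R7 and R8 taken singly, and 1 without all of them, when Zmat3, Ccng1 and Gdf15 were no longer called.

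Proliferation genes were not raised. Of 34 cell cycle genes 0 were called higher by edgeR's test or by DESeq2, 0 were higher and 28 lower at an unadjusted p below 0.05, 1 (Mcm6, a helicase subunit, -0.44, adjusted p = 0.0401) was lower, and no member had a positive log2 fold change, with a median of -0.51. On day 14, 31 of them had been higher, against 31.5% of all genes. Over all genes, 4662 of 15825 had an unadjusted p below 0.05 on day 42, in either direction. Mki67, the Ki-67 proliferation marker, ran 262, 355 and 459 CPM in bleomycin skin and 152, 479 and 930 CPM in PBS skin, a difference of -0.50 ± 0.25 (adjusted p = 0.172). The PBS libraries spread over a wider range than the bleomycin libraries and enclosed them: summed over the list, PBS skin had 771 to 3036 CPM and bleomycin skin 1091 to 1754 CPM. The count of members called lower was 23 without PBS R2, 26 without PBS R3, 33 with the hair keratin term, 12 without PBS R2, R4 and R6, and 0 with a muscle term. Mcm6 lost its call in 9 of the 16 fits without 1 library.

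Genes of the dermal matrix rose in number. Ccn3, a secreted regulator of the CCN family, was at 27.4, 105 and 159 CPM (lowest, median, highest) in bleomycin skin and 5.09, 9.50 and 13.2 CPM in PBS skin. Its log2 fold change was 3.41 ± 0.37 (adjusted p = 3.36e-10), a 10.7-fold rise, with bleomycin R3 lowest but still above all PBS libraries. Ccn3 kept its call in all 31 alternative fits and subsets, from 3.17 to 3.82. Col8a1, a short-chain collagen of vessel walls and remodelling tissue, was at 20.8, 55.3 and 114 CPM against 4.75, 5.89 and 10.8 CPM, a log2 fold change of 3.30 ± 0.37 (adjusted p = 7.89e-10). Cthrc1, a secreted protein that marks matrix-making fibroblasts in fibrotic tissue, was at 9.07, 40.6 and 62.4 CPM against 1.58, 2.79 and 5.78 CPM, a log2 fold change of 3.59 ± 0.47 (adjusted p = 5.3e-08) or 12.0-fold. For these 3 genes no bleomycin library reached down to the PBS range.

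Of 17 collagens and fibrillar matrix genes, 13 rose (76.5%) and 0 fell, and the median log2 fold change was 0.99. This list is a selection that also holds genes other than collagens, Sparc and Fn1 among them. Of all 41 tested collagen chains 11 rose and 3 fell, with a median of 0.44, against 5.28% and 4.96% of all genes. Col1a1, a chain of the main dermal collagen, was at 1475, 2593 and 3880 CPM in bleomycin skin and 437, 989 and 1381 CPM in PBS skin, without overlap, and differed by 1.53 ± 0.27 (adjusted p = 4.79e-05). The Col1a1 difference was 1.45 within plate 1 and 1.67 within plate 2. Col3a1, the collagen of young and healing dermis, was at 6018, 11353 and 16182 CPM against 2631, 4361 and 6267 CPM (1.37 ± 0.24, adjusted p = 3.26e-05), where bleomycin R3 alone lay within the PBS range. Col14a1, a fibril-associated collagen, rose by 1.59 ± 0.25 (adjusted p = 4.63e-06), the collagen-binding protein Sparc by 1.15 ± 0.18 (adjusted p = 4.11e-06) and fibronectin, Fn1, by 1.36 ± 0.23 (adjusted p = 2.3e-05). The members not called were Col5a3 (0.51), Col6a3 (0.57), Col16a1 (0.21) and Col11a1 (-0.74). Summed over the list, bleomycin skin had 15789, 28302 and 39810.5 CPM and PBS skin 7550, 12924 and 15696 CPM, so that the groups did not overlap. The number that rose stayed between 11 and 15 in every alternative for which it was computed, 11 of them without PBS R5, R7 and R8.

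Enzymes that fold and cross-link collagen rose in part. Of 16, 9 rose and 0 fell, with a median of 0.50. Lox, the lysyl oxidase that cross-links collagen and elastin, was at 80.7, 210 and 271 CPM against 24.6, 51.3 and 72.4 CPM, every bleomycin library above every PBS library, and rose by 1.96 ± 0.30 (adjusted p = 2.81e-06). Its relative Loxl1 rose by 1.38 ± 0.25 (adjusted p = 6.07e-05), the prolyl hydroxylase subunit P4ha3 by 2.13 ± 0.39 (adjusted p = 7.84e-05) and Adamts2, which trims procollagen, by 0.77 ± 0.19 (adjusted p = 0.00415). Plod2, the lysyl hydroxylase that prepares collagen for the cross-links of fibrosis, was not called, at -0.41. Without PBS R5, R7 and R8 the count was 3, and Adamts2 was among the calls lost.

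Matricellular proteins signal between matrix and cells without being structural, and 7 of 15 rose, with a median of 0.79. Postn, periostin, was at 971, 1901 and 2946 CPM against 533, 884 and 980 CPM, and bleomycin R3 alone lay within the PBS range (1.26 ± 0.23, adjusted p = 0.00011). Ccn5 was at 26.1, 41.6 and 55.6 CPM against 2.04, 8.68 and 40.4 CPM (1.62 ± 0.34, adjusted p = 0.00073), so that PBS skin reached into the bleomycin range. Ccn2, the family member best known as a TGF-beta target in fibrosis, was not called, at 0.34 ± 0.22 (adjusted p = 0.309). The count fell to 4 without any one of bleomycin R1, bleomycin R6, PBS R5, PBS R7 or PBS R8, and with the muscle sum as a term.

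The elastic fibre list had 8 of 16 members higher and 0 lower, with a median of 0.47. Eln, elastin, was at 100.1, 242 and 362 CPM in bleomycin skin and 52.5, 81.7 and 147 CPM in PBS skin, with bleomycin R3 alone inside the PBS range, and differed by 1.42 ± 0.25 (adjusted p = 4.52e-05). On day 14 Eln had been lower by 2.04 on the log2 scale, and on day 28 it was not called at 0.24. Mfap5, a glycoprotein of microfibrils, was at 39.7, 77.0 and 109 CPM against 23.0, 26.0 and 36.7 CPM, without overlap (1.51 ± 0.23, adjusted p = 4.11e-06). The microfibril genes Fbn1 (0.80 ± 0.17, adjusted p = 0.000769) and Mfap4 (1.28 ± 0.30, adjusted p = 0.00267) also rose. Of 11 small leucine-rich proteoglycans, which space collagen fibrils, 6 rose and 0 fell. Bgn, biglycan, was at 231, 321 and 448 CPM against 107, 161 and 191 CPM, without overlap (1.07 ± 0.17, adjusted p = 1.05e-05), and Aspn, asporin, rose by 1.56 ± 0.29 (adjusted p = 0.000104). Decorin, Dcn, another member, was at -0.09 and was not called. Without PBS R5, R7 and R8 the elastic fibre count was 5, and with the 2 groups alone the proteoglycan count was 3.

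Basement membrane genes gave a mixed count, 5 of 22 higher and 1 lower. Perlecan, Hspg2 (0.75 ± 0.16), nidogen, Nid1 (0.67 ± 0.15, adjusted p = 0.00231), and the laminin chains Lama4 (0.48) and Lamc1 (0.36) were higher, and Lama1 was lower (-1.32 ± 0.42, adjusted p = 0.0335). Hspg2, Lamc1 and Lama4 lost their calls without PBS R5, R7 and R8, when the count of rises was 2, and Lama1 lost its call without PBS R2, R4 and R6 and in 6 of the 16 fits without 1 library. Col4a3, a collagen IV chain, was at 2.16, 2.84 and 4.39 CPM against 5.84, 7.79 and 14.6 CPM, below every PBS library, and fell by 1.66 on the log2 scale (SE 0.30, adjusted p = 7.84e-05). Among 17 metalloproteinases and TIMPs, which degrade matrix or inhibit that, 8 rose and 0 fell, among them Mmp2 (1.20 ± 0.20, adjusted p = 2.17e-05), Mmp3 (1.52 ± 0.30, adjusted p = 0.000363) and Mmp16 (0.99 ± 0.20, adjusted p = 0.000393). The inhibitor Timp1 was at 3.41, 7.27 and 18.5 CPM against 1.74, 3.66 and 5.71 CPM (1.21 ± 0.33, adjusted p = 0.0108), with overlapping groups, and its call was lost without PBS R5, R7 and R8.

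The contractile genes of myofibroblasts were not raised along with the collagens. Acta2, smooth muscle actin, was at 82.2, 107 and 117 CPM in bleomycin skin and 114, 127 and 190 CPM in PBS skin, slightly lower at -0.36 ± 0.11 (adjusted p = 0.0297). The Acta2 call was lost in 4 of the 16 fits that left out 1 library. Of 15 activated fibroblast and myofibroblast genes 4 rose (Cthrc1, Pdpn, Cdh11 and Sfrp2) and 3 fell (Acta2, Myl9 and Grem1). The cadherin Cdh11 was at 0.91 ± 0.19 (adjusted p = 0.000878) and the membrane protein Pdpn at 0.69 ± 0.13 (adjusted p = 0.000217), while the myosin light chain Myl9 was at -0.45 ± 0.10 (adjusted p = 0.000962). Grem1, an inhibitor of BMP ligands, was at -0.95 ± 0.26 (adjusted p = 0.0102). Hair follicles, vessels and the small muscles of hair also hold Acta2 and Myl9, and their part in these values was not tested. Of 22 TGF-beta responsive genes, 6 rose and 1 fell, with a median of 0.21. Without PBS R5, R7 and R8 the TGF-beta count was 3 and that of metalloproteinases and TIMPs 4, and Tgfb3 and Acta2 lost their calls. Pmepa1, a feedback inhibitor of the pathway, rose by 0.66 ± 0.16 (adjusted p = 0.0037) and the ligand Tgfb3 by 0.69 ± 0.17 (adjusted p = 0.00412), and Actg2, a smooth muscle actin, fell (-0.55 ± 0.15, adjusted p = 0.0149).

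**Figure D2:**
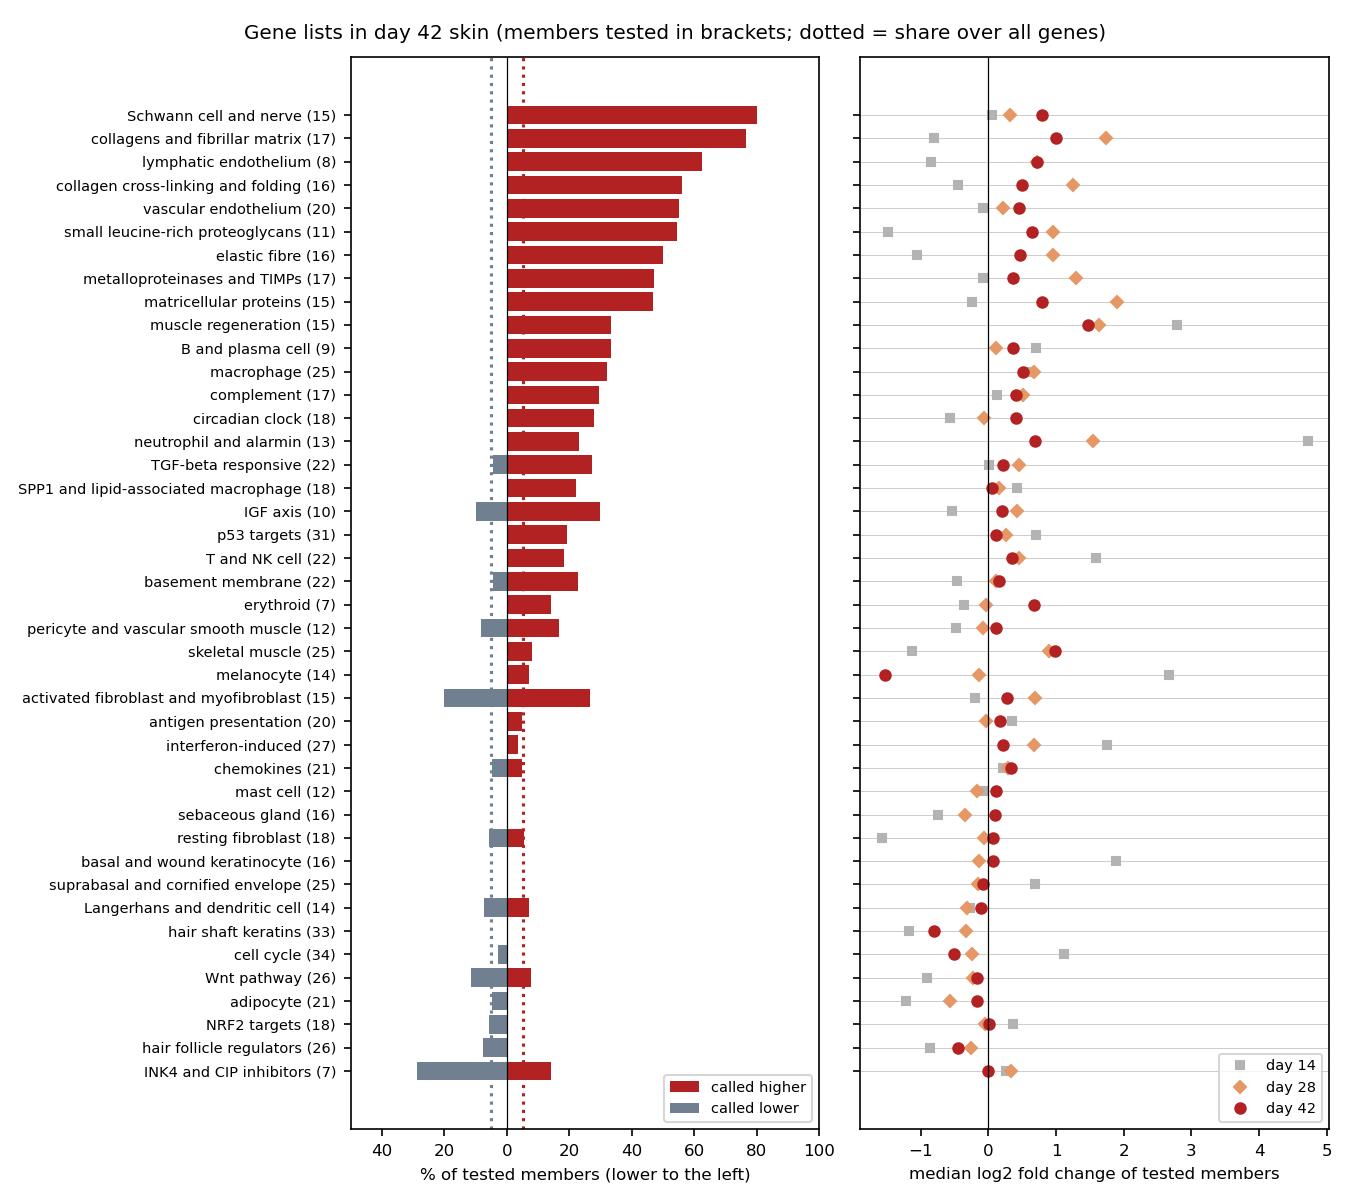
Left, the percentage of each list's tested members called higher or lower on day 42, with dotted lines at the shares over all genes (5.28% and 4.96%); right, the median log2 fold change of each list on days 14, 28 and 42. Schwann cell genes (12 of 15 higher) and the list of collagens and fibrillar matrix (13 of 17 higher) have the longest bars. The median of the collagen and fibrillar matrix list goes from -0.80 on day 14 to 1.73 on day 28 and 0.99 on day 42.

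Macrophage transcripts rose in part. Of 25 macrophage genes 8 rose and 0 fell, with a median of 0.52, among them the chemokine receptor Cx3cr1 (1.07 ± 0.25, adjusted p = 0.00268), Ms4a7 (0.94 ± 0.25, adjusted p = 0.00833) and the Fc receptor Fcgr3 (0.68, adjusted p = 0.00763). Of the 18 genes of SPP1 and lipid-associated macrophages 4 rose, namely Mmp12, Trem2, Ctsk and Spp1. Mmp12, the macrophage elastase, was at 12.99, 31.4 and 218 CPM against 3.02, 5.94 and 23.7 CPM (2.79 ± 0.51, adjusted p = 7.84e-05), highest in bleomycin R1 and overlapping between groups. Trem2, a lipid-sensing receptor, was at 2.55, 5.41 and 13.6 CPM against 0.229, 1.19 and 2.45 CPM, every bleomycin library above every PBS library (2.29 ± 0.43, adjusted p = 0.000133). Spp1, osteopontin, was at 4.02, 8.31 and 35.9 CPM against 2.14, 3.59 and 6.17 CPM (1.71 ± 0.54, adjusted p = 0.0282), and its call was lost in 4 of the 16 fits without 1 library, bleomycin R1 among them. Ctsk, a collagen-degrading cathepsin that fibroblasts also make, rose by 1.31 ± 0.26 (adjusted p = 0.000366). The count of macrophage genes called higher ran from 3 without PBS R5 or without PBS R8 to 13 without bleomycin R3, and was 1 without PBS R5, R7 and R8, 4 without bleomycin R1, bleomycin R6 or PBS R7 and 5 without bleomycin R4, R5 or R8. With the hair keratin term it was 17. Cx3cr1, Ms4a7, Fcgr3 and Spp1 were among the calls lost without PBS R5, R7 and R8, whose macrophage sums were 1031, 1411 and 1116 CPM.

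Some lymphocyte genes rose. Among 22 T and NK cell genes, 4 rose (18.2%, against 5.28% of all genes): Cd4, Foxp3, Cd28 and Icos. Cd4, the helper T cell co-receptor that macrophages can also carry, was at 4.99, 9.34 and 11.7 CPM against 1.20, 3.59 and 4.65 CPM, without overlap (1.37 ± 0.26, adjusted p = 0.000165), and Foxp3, the factor of regulatory T cells, rose by 1.39 ± 0.35 (adjusted p = 0.00581). Of 9 tested B and plasma cell genes, from a list of 16, 3 rose (33.3%). Ms4a1, Cd79a, Ighm and Igkc were among the members not tested. Jchain, which joins secreted antibodies, was at 1.504, 5.50 and 13.5 CPM against 0, 0.418 and 3.99 CPM (2.40 ± 0.53, adjusted p = 0.00139, overlapping), Cd79b, part of the B cell receptor, rose by 1.16 (adjusted p = 0.00475) and Pax5, the B lineage factor, by 2.35 (adjusted p = 0.00799). The T and NK count was 2 without any one of bleomycin R1, R2, R5, R6 and R7 or PBS R4, R5, R7 and R8, and 1 with the 2 groups alone. It was 10 with the hair keratin term and 9 without PBS R2, R4 and R6. Foxp3, Cd28, Icos, Jchain and Cd79b lost their calls without PBS R5, R7 and R8, and Cd4 kept its own. With the 2 groups alone 0 B and plasma cell genes were called: Jchain and Cd79b lost their calls, and Pax5 was not tested. Foxp3 was not tested in that fit either. Pax5 kept its call in all 27 alternatives that tested it.

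Fewer neutrophil and interferon genes were called on day 42 than on day 14. Of 13 neutrophil and alarmin genes, all 13 had been higher on day 14 at a median of 4.72, when 31.5% of all genes were higher. On day 42 the 3 called were Cxcl1 (1.63 ± 0.44, adjusted p = 0.0108), Cxcl5 (2.93 ± 0.90, adjusted p = 0.0258) and Retnlg (1.59), Cxcl1 and Cxcl5 being ligands that attract neutrophils. These 3 calls are 23.1% of the list, against 5.28% higher among all genes. The list median was 0.68, and 12 of 13 values were positive. Of 27 interferon-induced genes, 26 had been higher on day 14, and on day 42 Oas2, an antiviral enzyme, alone was (0.85 ± 0.25, adjusted p = 0.019), with a list median of 0.22. Its 1 call is 3.7% of that list, against 5.28% higher among all genes. Among 17 complement genes 5 rose, with C4b (0.96 ± 0.20, adjusted p = 0.000477) and the receptor C3ar1 (0.87, adjusted p = 0.00979) among them. Chemokines gave 1 rise and 1 fall out of 21 (4.76% each), near the 5.28% and 4.96% of all genes, with 8 rises under the hair keratin term. Ccl12, a monocyte attractant, rose by 1.62 ± 0.35 (adjusted p = 0.00111), while its relative Ccl2 was at 0.62 ± 0.33 (adjusted p = 0.189). Cxcl13, which attracts B cells, was at 0.223, 0.437 and 1.41 CPM against 1.74, 2.41 and 4.82 CPM, below all PBS libraries, and fell (-2.20 ± 0.44, adjusted p = 0.000358). Of 12 mast cell genes 0 were called by edgeR's test and 0 by DESeq2, and 0 had an unadjusted p below 0.05, against 4662 of all 15825 genes. With the hair keratin term 1 mast cell gene was called higher, and without PBS R2, R4 and R6 it was 3. Itgax, an integrin of dendritic cells and macrophages, rose by 1.05 (adjusted p = 0.00415). Without PBS R5, R7 and R8 the calls of Cxcl1, Cxcl5, Retnlg, Oas2, C3ar1, Ccl12 and Itgax were lost, and the complement count was 1.

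Vessel markers rose in part. Of 20 vascular endothelial genes 11 rose and 0 fell, with a median of 0.45, and of 8 lymphatic genes 5 rose, with a median of 0.72. Cdh5, the cadherin of endothelial junctions, was at 21.3, 40.1 and 54.5 CPM against 17.9, 22.6 and 31.9 CPM, overlapping ranges that differed by 0.77 ± 0.13 (adjusted p = 9.86e-06). The endothelial factor Erg rose by 0.60 ± 0.11 (adjusted p = 4.79e-05), the receptor Tie1 by 0.55 (adjusted p = 0.000548) and Robo4 by 0.70 (adjusted p = 0.00222). The VEGF receptors Kdr and Flt1, at 0.15 and 0.29, were not called. Prox1, the factor that sets lymphatic identity, was at 9.37, 16.2 and 24.6 CPM against 2.64, 7.19 and 10.8 CPM (1.20 ± 0.23, adjusted p = 0.000187), with bleomycin R2 and R3 inside the PBS range, and Flt4, the receptor of lymphatic growth factors, rose by 0.87 (adjusted p = 0.004). The pericyte genes Rgs5, at 90.9, 133 and 150.2 CPM against 60.5, 77.7 and 83.4 CPM without overlap (0.73 ± 0.10, adjusted p = 2.18e-07), and Higd1b (0.68) rose, 2 of a list of 12 in which Acta2 fell. The vascular count was 5 with the 2 groups alone, 3 without PBS R5, R7 and R8, and 17 with the hair keratin term, and the lymphatic count was 3 without any one of PBS R5, R7 and R8.

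Schwann cells, the glia that wrap peripheral nerve fibres, had the highest share of members that rose of all lists: 12 of 15 rose, 0 fell, and the median was 0.80. Gjc3, a gap junction protein of myelinating glia, was at 3.52, 4.32 and 5.90 CPM against 1.01, 1.69 and 2.64 CPM, without overlap (1.37 ± 0.21, adjusted p = 4.45e-06), and the receptor Gfra3 rose by 0.80 ± 0.15 without overlap (adjusted p = 0.00019). Sox10, a factor shared by Schwann cells and melanocytes, rose by 0.89 ± 0.15 (adjusted p = 1.46e-05). Mbp, Pmp22 and Prx, genes of myelin, were not called at 0.38, 0.36 and 0.48. Outside the list Gap43, a protein of growing axons, rose by 1.91 ± 0.30 (adjusted p = 4.11e-06).

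The Schwann sums ran from 390 to 637 CPM in bleomycin skin and from 367 to 525 CPM in PBS skin except in PBS R5, R7 and R8, where they were 224, 220 and 216 CPM. These were also the PBS libraries richest in hair keratins. Without PBS R5 or R8 the count of members that rose was 6, without PBS R7 or bleomycin R5 it was 7, and without PBS R5, R7 and R8 it was 5, as with the 2 groups alone. With the hair keratin sum as a term it was 15.

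**Figure D3:**
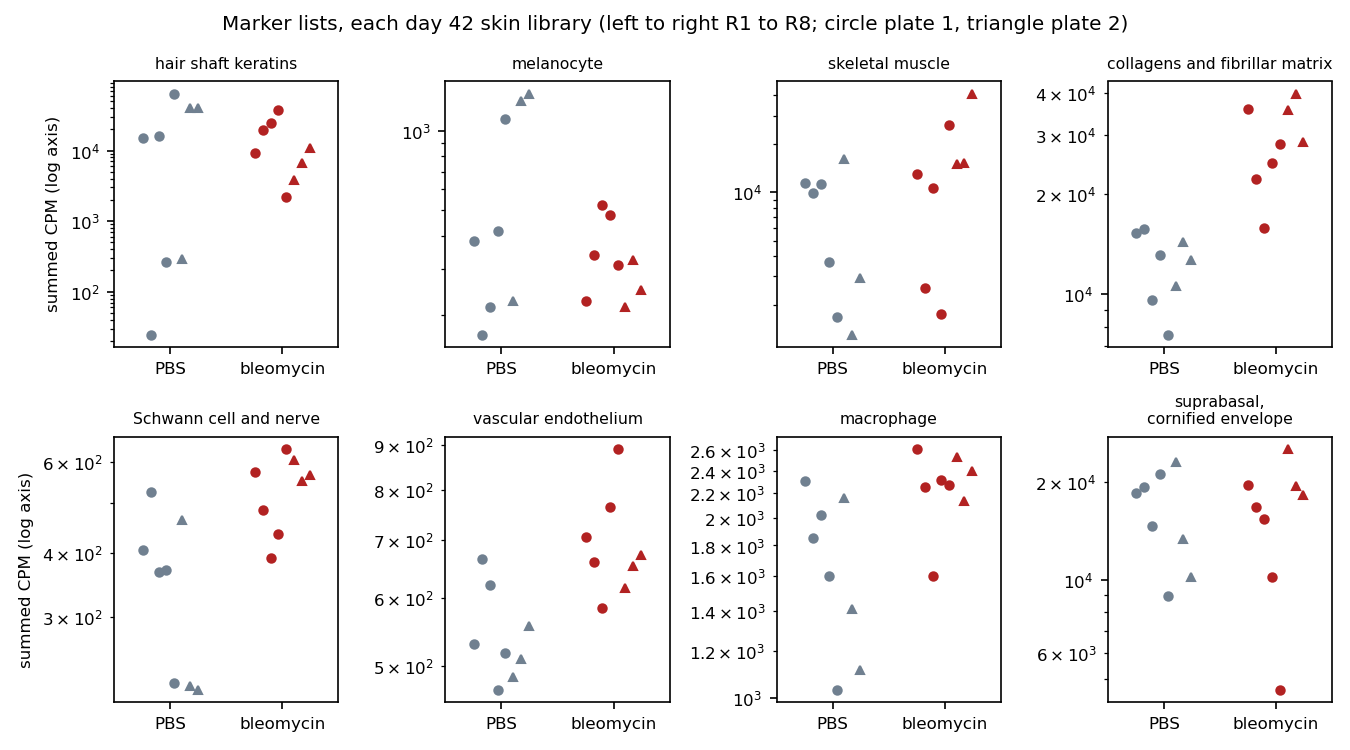
Summed CPM (log axis) of 8 marker lists in each library, with replicates R1 to R8 from left to right in each group. PBS R5, R7 and R8 are high for hair shaft keratins and melanocytes and low for Schwann cell genes (216 to 224 CPM). The collagen and fibrillar matrix sums of the groups do not overlap.

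Muscle transcripts varied widely between punches. Of 25 structural muscle genes 2 rose (8%, against 5.28% of all genes), Actn2 (1.62, adjusted p = 0.0368) and the slow myosin Myh7 (3.58 ± 1.24, adjusted p = 0.0499), with a list median of 0.98. This count was 0 without PBS R5, R7 and R8, 0 to 3 in the fits without 1 library and 11 with the hair keratin term. Of 15 muscle regeneration genes 5 rose, with a median of 1.47: the embryonic myosin Myh3 (3.27 ± 1.09, adjusted p = 0.0398), the perinatal myosin Myh8 (2.42 ± 0.81, adjusted p = 0.0408), the receptor subunits Chrna1 (1.47 ± 0.44, adjusted p = 0.0211) and Chrng (3.21), and the myogenic factor Myf5 (2.66). The regeneration count was 0 without bleomycin R8, 0 with a muscle term, 0 without PBS R5, R7 and R8, and 9 without PBS R3, and it was 1 without bleomycin R5, PBS R7 or PBS R8 and 2 without PBS R5. In the 16 fits without 1 library Myh7 lost its call in 12, Myh8 in 9, and Actn2 and Myh3 in 8 each. The highest summed level of the structural genes was 41114 CPM in bleomycin skin and 16015 CPM in PBS skin, and the part of the muscle under the skin in these calls was not tested beyond the muscle term.

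Lists of the epidermis and its glands held 0 called genes in the fit of all skin groups. Of 16 basal and wound keratinocyte genes, 25 suprabasal and cornified envelope genes and 16 sebaceous genes, 0 were called by edgeR's test. At an unadjusted p below 0.05 there were 2, 1 and 1, all higher, against 4662 of all 15825 genes in either direction. DESeq2 called 1 basal gene and 0 of the others. With the hair keratin term 2 basal, 1 suprabasal and 4 sebaceous genes were called higher. Krt14 was at 0.06 ± 0.20 (adjusted p = 0.861). Of 33 hair shaft keratins 0 were called by either tool and 0 had an unadjusted p below 0.05, with no positive value and a median of -0.80. Among 26 hair follicle regulators 2 fell, close to the 4.96% of all genes: Lgr6, a stem cell receptor (-0.77 ± 0.21, adjusted p = 0.0123), and Bmp4 (-0.58 ± 0.17, adjusted p = 0.02). The sum over all 26 did not overlap between the groups, 995 to 1198 CPM in bleomycin skin and 1211 to 1531 CPM in PBS skin. With the hair keratin term 15 were called lower and without PBS R2, R4 and R6 it was 6, when Lgr6 lost its call, while Bmp4 lost its own without PBS R5, R7 and R8. Melanocyte genes had a median of -1.53, with Sox10 the 1 member of 14 called higher and 0 called lower; with the hair keratin term, and equally without PBS R2, R4 and R6, 12 were called lower. Krt24, a keratin of differentiated epithelia, was at 2.27, 3.81 and 5.40 CPM against 6.46, 8.73 and 19.0 CPM, below every PBS library, and fell (-1.49 ± 0.30, adjusted p = 0.00033).

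Once genes below a mean log2 CPM of 1 were set aside, the largest falls were in the CD209 family, C-type lectins related to human DC-SIGN that lie in a cluster on chromosome 8. Cd209f was at 3.53, 4.66 and 6.20 CPM in bleomycin skin and 10.4, 19.1 and 32.7 CPM in PBS skin, and Cd209g at 1.08, 1.83 and 2.40 CPM against 4.12, 8.17 and 16.3 CPM. For both, every bleomycin library was below every PBS library. The log2 fold change was -2.13 ± 0.27 for Cd209f (adjusted p = 3.88e-08) and -2.40 ± 0.32 for Cd209g (adjusted p = 1.07e-07). Cd209b, at 2.79, 3.46 and 4.45 CPM against 5.27, 10.0 and 17.3 CPM, fell as well, again without overlap (-1.53 ± 0.27, adjusted p = 5.96e-05), and so did Cd209d (-1.05 ± 0.28, adjusted p = 0.00896), which was not called without PBS R2, R4 and R6. Cd209a (-0.53), Cd209c (-0.35) and Cd209e (-0.67) were not called, so 4 of the 7 members fell and all 7 values were negative. The family was singled out after its values were seen. Cd209f was -0.95 on day 7 and -2.29, -2.24 and -2.14 on days 14, 21 and 28, and its difference was -2.09 within plate 1 and -2.12 within plate 2.

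Cd209f and Cd209g share sequence, and their promoter windows (RefSeq, GRCm38.p6) are shown to mark that likeness. The windows lie mostly before the RefSeq start. In GENCODE M21, however, Cd209g runs from 4134098 to 4137707, so its window lies within the gene. Cd209f ends there at 4105835, so part of its window does too. Whether reads from the shared run were counted was not tested. The capitals mark the longest run that both share, 180 bases.
Cd209f, chr8:4105715-4106014, minus strand: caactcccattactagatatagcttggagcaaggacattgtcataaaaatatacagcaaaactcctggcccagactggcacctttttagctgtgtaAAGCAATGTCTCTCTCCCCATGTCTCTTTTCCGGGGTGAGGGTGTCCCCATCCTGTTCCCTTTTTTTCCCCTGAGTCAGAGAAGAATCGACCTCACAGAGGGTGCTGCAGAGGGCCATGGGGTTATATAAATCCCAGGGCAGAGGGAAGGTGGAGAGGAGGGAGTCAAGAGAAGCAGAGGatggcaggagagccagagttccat
Cd209g, chr8:4134486-4134785, plus strand: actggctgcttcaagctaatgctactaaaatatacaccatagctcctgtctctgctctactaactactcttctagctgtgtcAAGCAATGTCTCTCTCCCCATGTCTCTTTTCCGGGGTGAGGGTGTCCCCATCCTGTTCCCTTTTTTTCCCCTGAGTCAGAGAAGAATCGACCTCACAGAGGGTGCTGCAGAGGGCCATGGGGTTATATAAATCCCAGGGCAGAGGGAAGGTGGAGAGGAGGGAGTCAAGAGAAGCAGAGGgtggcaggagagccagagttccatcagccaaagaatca
In the transcripts, 29.8% of the 50-base stretches of Cd209f also occur in Cd209g and 16.6% of those of Cd209g in Cd209f, so the division of counts between them is uncertain, while none were shared with the other members.

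Further falls were spread over enzymes, receptors and ligands. Il31ra, a subunit of the receptor for the itch cytokine IL-31, was at 4.37, 6.63 and 8.92 CPM against 4.20, 20.8 and 49.99 CPM, so that PBS skin spanned the bleomycin range (-1.74 ± 0.38, adjusted p = 0.00115). The aldo-keto reductases Akr1cl (-2.09 ± 0.39, adjusted p = 0.000147) and Akr1c18, which inactivates progesterone (-1.33 ± 0.26, adjusted p = 0.000263), fell, as did the oxytocin receptor Oxtr (-1.58 ± 0.34, adjusted p = 0.00102), the carnosine synthase Carns1 (-1.49 ± 0.36, adjusted p = 0.004), the ficolin Fcna (-1.44 ± 0.31, adjusted p = 0.0011) and the odorant-metabolising Cyp2g1 (-1.32 ± 0.36, adjusted p = 0.0116). Small falls with tight spread were among those with the lowest p. Ccdc117 was at 28.7, 37.9 and 45.6 CPM against 48.2, 50.6 and 56.1 CPM, without overlap (-0.44 ± 0.07, adjusted p = 1.63e-05), and Uspl1 (-0.34 ± 0.05, adjusted p = 1.6e-06), the respiratory gene regulator Nrf1 (-0.31 ± 0.05, adjusted p = 4.94e-06) and the adaptor Crkl (-0.22 ± 0.04, adjusted p = 7.37e-05) fell by less. Nrcam, a neuronal adhesion molecule, was at -1.04 ± 0.18 (adjusted p = 2.08e-05). Mup18, a urinary protein, was at -1.38 ± 0.48 (adjusted p = 0.0491) and lost its call in 11 of the 16 fits without 1 library. Several of these falls rested on PBS R2, R4 and R6, the libraries lowest in hair keratins: Oxtr was at 144, 68.3 and 87.6 CPM there and at most 23.9 CPM in any other library compared. Without these 3 libraries Il31ra was at -0.85 (adjusted p = 0.0947), Oxtr at -0.21 (adjusted p = 0.64) and Akr1c18 at -0.52 (adjusted p = 0.117), and Carns1, Cyp2g1 and Mup18 also lost their calls.

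Among rises outside these lists, Islr2, a neuronal leucine-rich repeat protein, was at 2.75, 6.37 and 12.8 CPM against 0.550, 0.985 and 1.91 CPM, without overlap (2.64 ± 0.46, adjusted p = 4.37e-05). Hmcn2, a hemicentin of the extracellular matrix, was at 54.8, 145 and 230 CPM against 6.41, 27.7 and 79.5 CPM (1.93 ± 0.50, adjusted p = 0.00772), with overlap and with no call without PBS R5, R7 and R8. Galnt17, a glycosyltransferase, was at 13.6, 23.4 and 28.7 CPM against 4.44, 6.14 and 9.71 CPM (1.82 ± 0.22, adjusted p = 1.21e-08), and the glutamate receptor Gria3 at 17.4, 31.1 and 39.6 CPM against 6.67, 8.41 and 17.1 CPM (1.47 ± 0.18, adjusted p = 1.57e-08); in both genes the bleomycin libraries were above all PBS libraries. Clec4n, dectin-2 of myeloid cells, was at 4.27, 9.10 and 11.7 CPM against 1.59, 2.06 and 3.42 CPM, without overlap (1.89 ± 0.36, adjusted p = 0.00014). Hc, complement C5, rose by 2.28 ± 0.60 (adjusted p = 0.00849), C1qtnf3, a C1q-related hormone, by 1.93 ± 0.44 (adjusted p = 0.00222; not called without PBS R5, R7 and R8), and Masp1, a lectin pathway protease, by 1.49 ± 0.20 (adjusted p = 1.16e-07). Olfml2a (0.99 ± 0.13, adjusted p = 5.3e-08), C1qtnf5 (1.58 ± 0.21, adjusted p = 5.3e-08), Adam11 (1.68 ± 0.22, adjusted p = 7.01e-08) and the plexin Plxnb3 (1.48 ± 0.20, adjusted p = 1.94e-07) had some of the lowest p of the comparison.

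Signalling lists gave few calls. Of 26 Wnt pathway genes 2 rose (7.69%) and 3 fell (11.5%), against 5.28% and 4.96% of all genes. The agonists Rspo1 (-1.39 ± 0.28, adjusted p = 0.00033) and Rspo3 (-0.61 ± 0.19, adjusted p = 0.0252) and the Wnt deacylase Notum (-1.02 ± 0.26, adjusted p = 0.00693) were lower, and the secreted modulators Sfrp2 (1.41 ± 0.40, adjusted p = 0.0166) and Dkk3 (0.52) higher. Both rises were lost without PBS R5, R7 and R8, Rspo3 lost its call in 4 of the 16 fits without 1 library, and 10 genes were called lower with the hair keratin term. Of 10 IGF axis genes 3 rose and 1 fell: Igf1 was at 0.69 ± 0.13 (adjusted p = 0.000122), the binding protein Igfbp2 at 1.35 ± 0.22 (adjusted p = 6.07e-06), Igfbp7 at 0.29 and Igfbp6 at -0.85 ± 0.25 (adjusted p = 0.0174). Of 18 circadian clock genes 5 rose, with a median of 0.41, led by Bhlhe41 (0.61 ± 0.14, adjusted p = 0.00177), Nr1d2 (0.57, adjusted p = 0.0115) and Dbp (0.97 ± 0.27, adjusted p = 0.0151); the labels used here give no hour of collection, and without PBS R5, R7 and R8 the count was 1. Of 21 adipocyte genes 1 fell, the hormone Retn (-0.78 ± 0.25, adjusted p = 0.0346), a share like the 4.96% of all genes. On day 14, 19 of the 21 had been lower, against 28.1% of all genes. Retn lost its call in 7 of the 16 fits without 1 library and without PBS R2, R4 and R6. Of 18 NRF2 targets 1 fell (5.56%, near the 4.96% of all genes), Txnrd1 (-0.49 ± 0.17, adjusted p = 0.0488), which stood at 0.04 without PBS R5, R7 and R8.

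The day 42 changes were then set against the bleomycin and PBS skin of earlier days, which are other libraries. Bleomycin was called to change 46.2% of genes on day 7 (25.5% higher, 20.7% lower), 59.6% on day 14 (31.5% and 28.1%), 41.2% on day 21 (20.2% and 21%) and 24.3% on day 28 (12.7% and 11.6%), against 10.2% on day 42. The day 7 and day 14 groups had no oral vehicle. Of 2013 genes higher on day 28, 592 (29.4%) were also higher on day 42 and 2 (0.0994%) were lower. Of 1831 genes lower on day 28, 280 (15.3%) were lower on day 42. The share was smaller from day 14: of 4981 genes higher then, 295 (5.92%) were higher on day 42 and 223 (4.48%) lower, close to the shares over all genes. Read from day 42, 70.9% of its rises and 35.7% of its falls had been called the same way on day 28. Of the rises, 238 were higher on days 14, 28 and 42, 165 were lower on day 14 and higher on days 28 and 42, and 114 were called on day 42 alone of these 3 days.

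**Figure D4:**
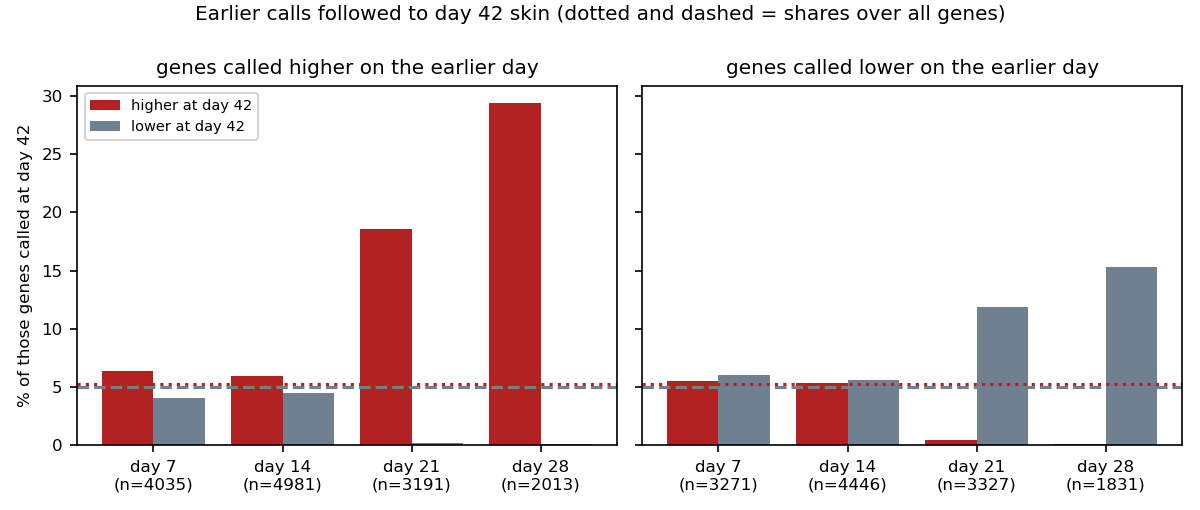
Percentage of the genes called higher or lower by bleomycin on days 7, 14, 21 and 28 that were called higher or lower on day 42. Genes higher on day 28 stayed higher on day 42 in 29.4%, whereas genes higher on day 14 were divided between 5.92% higher and 4.48% lower.

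**Figure D5:**
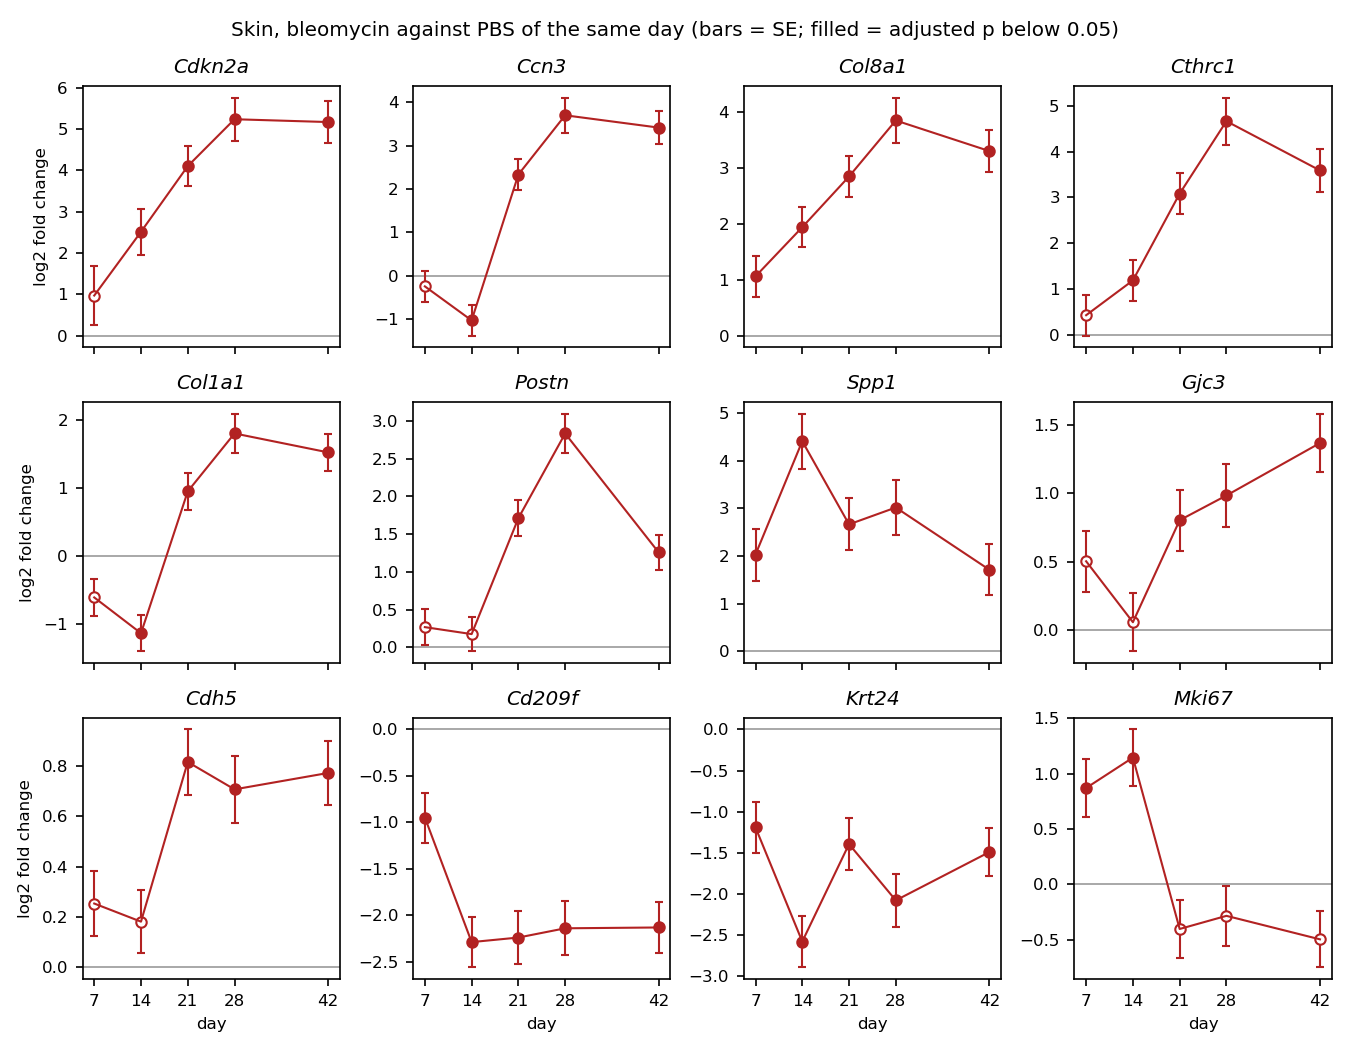
Log2 fold change of bleomycin over PBS with its standard error on days 7, 14, 21, 28 and 42 for 12 genes, filled where the adjusted p was below 0.05. Col1a1 goes from -1.14 on day 14 to 1.81 on day 28 and 1.53 on day 42, and Cdkn2a is at 5.24 and 5.17 on the last 2 days.

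Against day 28, the difference of the bleomycin effects was called in 392 genes (2.48%), 121 with the higher value on day 42 (0.765%) and 271 with the lower (1.71%). The bleomycin effect on matrix genes was in part lower than on day 28. Postn went from 2.83 on day 28 to 1.26, a difference of -1.58 (adjusted p = 0.00427), Aspn by -1.58 (adjusted p = 0.021) and Timp1 from 2.94 to 1.21. Members of the collagen list called lower than on day 28 were Col5a2, Col5a3 and Col12a1, 3 of 17, with a list median difference of -0.58; Col1a1 went from 1.81 to 1.53 and Col3a1 from 1.95 to 1.37 without a call. Among matricellular genes 5 of 15 had a lower effect, and among cross-linking enzymes 4 of 16, Plod2 and Loxl2 among them. Acta2 passed from 0.33 (adjusted p = 0.0342) to -0.36, a difference of -0.69 (adjusted p = 0.0116). Of the macrophage, vascular, lymphatic and Schwann lists 0 members were called to differ from day 28 by edgeR's test or by DESeq2. At an unadjusted p below 0.05, 5 of 20 vascular and 3 of 15 Schwann genes had a higher effect on day 42, and 0 of the macrophage and lymphatic genes differed. Over all genes 2520 of 15825 differed at that threshold, in either direction. The Schwann median difference was 0.39. Hmcn2 went the other way, from -0.86 (adjusted p = 0.254) to 1.93, a difference of 2.79 (adjusted p = 0.0236). Without the plate term the difference was called in 182 genes.

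Against day 14, at the end of the 2 weeks of injections, the effects differed in 8053 genes (50.9%), 3643 with the higher value on day 42 (23%) and 4410 with the lower (27.9%). Genes of the collagen and fibrillar matrix list had a higher effect in 14 of 17 and small leucine-rich proteoglycans in 11 of 11, with median differences of 1.45 and 2.09. Elastic fibre genes had it in 13 of 16, vascular genes in 13 of 20, Schwann genes in 10 of 15 and adipocyte genes in 17 of 21. The effect was lower on day 42 for 32 of 34 cell cycle genes, 24 of 27 interferon-induced genes, 10 of 13 neutrophil genes and 18 of 31 p53 targets. Fndc1, a fibronectin-repeat protein, passed from -3.08 to 0.89, a difference of 3.97 ± 0.31 (adjusted p = 4.34e-17). Cdkn2a, Ccn3 and Cthrc1 stood at 2.51, -1.03 and 1.19 on day 14 and at 5.17, 3.41 and 3.59 on day 42.

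In lung of the same treatment groups, bleomycin was called to change 16.4% of genes on day 42, 11.4% higher and 4.99% lower. The effect in skin minus that in lung was called in 2008 of 16585 genes (12.1%), 826 with the higher value in skin (4.98%) and 1182 with the lower (7.13%). Bleomycin lung R1 held 13355 CPM of the liver transcript Alb, against at most 4.46 CPM in the other bleomycin lungs and 1.17 CPM in PBS lungs, and without this library the difference was called in 1110 genes, 647 higher and 463 lower in skin. Counts without it are given beside the main ones.

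Vessel genes differed between the tissues: 16 of 20 had the higher effect in skin, 13 without lung R1, and in lung, R1 included, 0 rose and 9 fell. Cdh5 was at 0.77 in skin and -0.20 in lung, a difference of 0.98 (adjusted p = 9.85e-07). Schwann genes had the higher effect in skin in 8 of 15, 6 without lung R1. Macrophage genes had the lower effect in skin in 6 of 25 with and without that library, and p53 targets in 11 of 31, 10 without it, where 18 p53 targets had risen in lung with R1 included. Cell cycle genes had the lower effect in skin in 19 of 34 with lung R1 and in 8 without it. Of the collagen list 2 of 17 genes differed, both higher in skin.

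Ccn3 and Col8a1, which rose in skin, were at 0.12 and 0.35 in lung, with differences of 3.30 (adjusted p = 3.12e-11) and 2.96 (adjusted p = 1.49e-09), and 3.20 and 2.85 without lung R1. Cthrc1 was at -0.17 in lung (difference 3.77, adjusted p = 2.14e-09), and Col4a3, which fell in skin, at 0.32 (difference -1.98, adjusted p = 1.81e-07). Cdkn2a rose in lung too, by 1.502 (adjusted p = 0.00822), less than in skin by 3.67 (adjusted p = 9.49e-06). Mmp12 and Trem2 rose in both tissues, at 3.31 and 2.87 in lung. Cd209g was at -1.68 in lung against -2.40 in skin. The effects of Cxcl13 and Fcna were of opposite sign, at 1.23 and 2.55 in lung against -2.20 and -1.44 in skin, with differences of -3.42 and -3.98 (adjusted p = 8.09e-06 and 1.43e-06).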

How the data were processed

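Per the labels' protocols, total RNA from skin punch biopsies was depleted of ribosomal RNA and made into stranded libraries. The authors deposited expected counts per gene, made with RSEM on GRCm38 per the submitters' processing notes; the aligner and all versions are not given in the sources used here. They also deposited log2 CPM of expressed genes, made with edgeR per the submitters' processing notes, which served only as an alternative.

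Expected counts (83.7% whole) were rounded. Of 22095 gene IDs, 21852 had a GENCODE M21 name and 243 did not. The 93 skin libraries entered 1 fit in R 4.3.3 with edgeR 4.0.16 (filterByExpr by group, TMM, quasi-likelihood F test) with group and plate as terms, with Benjamini-Hochberg adjustment over all tested genes and a threshold of 0.05. The lung comparison came from a fit with the lung libraries added. Standard errors were approximated by dividing each log2 fold change by the root of its F. Totals of 16.4 to 24.7 M counts make levels under 1 CPM imprecise. Identical libraries numbered 0. limma 3.58.1 and DESeq2 1.42.0 gave alternatives, next to other scaling, no filter, no plate term, single plates and left-out libraries. On simulated counts for 15825 genes of this comparison, 91 of 100 2-fold and 68 of 100 1.5-fold changes were recovered with 14 false calls. The changed genes were drawn only from those above a floor of mean counts, so recovery at lower counts was not tested. Whether these numbers hold for the deposited libraries, which differ widely in hair keratin sums, was not tested.

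Named genes were the 15 largest rises and falls among called genes whose mean log2 CPM reached 1 and that had a symbol, the 10 of smallest p in each direction, up to 4 called members of smallest p per list and direction, 12 genes of fibrosis, injury and proliferation, and the 5 of smallest p in each direction for each difference of effects; a few named beyond these were chosen after their values were seen. The comparison and the gene lists were chosen with earlier results of these data known. A few genes that the rule names are not reported here.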

Additional observations from a re-analysis of the deposited data

Results flagged for a closer look

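In each of 118 groups of 8 values (16 genes, the list sums and the total count) the highest or lowest library was compared with the next, and 7 stood apart by Dixon's criterion, which chance meets in about 1 of 20 groups. Bleomycin R1 was far above the other bleomycin libraries in Mmp12 (218 CPM, next 104) and in Spp1 (35.9 CPM, next 14.6). PBS R7 was high in Cthrc1 (5.78 CPM, next 3.53). Among list sums, bleomycin R4 was high in activated fibroblast and myofibroblast genes (1522 CPM, next 1234), bleomycin R8 in interferon-induced genes (901 CPM, next 672), and PBS R3 in basal and wound keratinocyte genes (12574 CPM, next 8587) and muscle regeneration genes (227 CPM, next 144).

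The effect of bleomycin differed between days by the test of the difference itself in the genes of smallest p. Day 42 minus day 28 gave 0.74 for Plekha6, 0.98 for Ltbp4, 0.65 for Slc16a13, 1.28 for Dact2 and 0.53 for Cdc42bpg, and -1.11 for Rras2, -2.18 for Gas2, -0.91 for Ccnyl1 and -0.55 for Ext1. Rras2, a small GTPase, and Gas2 went from 1.22 and 2.49 on day 28 to 0.11 and 0.31. Day 42 minus day 14 gave 3.97 for Fndc1, 3.45 for Fam198a, 1.41 for Rbms3, 1.88 for Pard3b and 2.68 for Btnl9, and -0.93 for Tpp2, -2.39 for Gsto1, -1.07 for Sh3bgrl2, -0.70 for Ddx24 and -1.03 for Naa25.

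By the same kind of test the effect in skin minus lung was 3.30 for Ccn3, 1.25 for Olfml2a, 2.34 for Kcna2, 2.96 for Col8a1 and 1.65 for Scube2, and -2.27 for Nrcam, and each kept its sign and call without bleomycin lung R1. The differences of -10.39 for Alb, -12.30 for Mup7, -11.82 for Mup14 and -11.15 for Mup19, all genes of the liver, were -0.33 (adjusted p = 0.834), -0.13, -0.90 and 2.55 (adjusted p = 0.5257) without that lung library, which alone held them at high levels.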

How the results depend on the processing

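The 1620 calls of the day 42 comparison became 1520 with the RLE scaling of DESeq2, of which 55.9% were higher against 51.5%, 1297 without a filter, 1816 with DESeq2 and 1319 with limma on the deposited log2 CPM, of which 71% were higher. They became 1035 without the plate term, 1019 with limma voom, 387 with the 2 groups alone (76.2% higher), 8 on plate 1 alone and 7 on plate 2 alone. Without 1 library the count ran from 821 to 2723. Alternatives chosen after seeing the data gave 5165 calls with a hair keratin term, 1045 with a muscle term, 3301 with both, 4198 without PBS R2, R4 and R6, and 557 without PBS R5, R7 and R8; the cause was not tested. The labels do not say whether the replicate numbers pair the libraries. Same-number correlations of deviations ran from -0.566 to 0.276, 3 of 8 were above 0.1 and 0 libraries correlated best with their own number. Hair content also enters these deviations, so they cannot settle whether libraries were paired. The 2 groups with a replicate block gave 128 calls. The 392 calls of day 42 minus day 28 became 182 without the plate term, and the 2008 of skin minus lung became 1110 without bleomycin lung R1. Of 149 called genes named by the rule, all 149 kept the call with DESeq2 and with the hair term, 146 with RLE, 134 with the muscle term and 92 without PBS R5, R7 and R8, where Txnrd1 alone turned sign, to 0.044. Limma voom kept 120 of the 149. With the 2 groups alone 99 of 142 kept the call, and 51 of 142 with a replicate block. On plate 1 alone it was 6 of 142, and on plate 2 alone 6 of 144.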

Other observations

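Of genes at low level that fell, 2 are named after their values were seen. Pgr, the progesterone receptor, ran from 0.054 to 0.585 CPM in bleomycin skin and from 0.199 to 12.7 CPM in PBS skin (log2 fold change -3.81 ± 0.80, adjusted p = 0.000744 by edgeR's test). Rxfp1, the relaxin receptor, ran from 0.111 to 1.11 CPM against 0.794 to 14.5 CPM (-3.78 ± 0.65, adjusted p = 2.78e-05). Pgr was at 10.5, 7.03 and 12.7 CPM in PBS R2, R4 and R6, the libraries lowest in hair keratins, and at 2.37 CPM or less in the other PBS libraries. Rxfp1 was called lower on day 14 and day 28 as well, at -4.55 and -4.80. In lung, Pgr was at -0.30 (adjusted p = 0.767) and Rxfp1 at -0.72 (adjusted p = 0.376).

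Clustered protocadherins, adhesion molecules that give neurons and other cells surface identities, moved one way, a group chosen after its values were seen. All 21 tested Pcdhb genes had a positive log2 fold change, with a median of 0.51, and 10 were called higher. All 18 Pcdhga and Pcdhgb genes were positive as well, with a median of 0.24 and 4 called. These genes share exons or close copies within each cluster, so the division of counts among members is uncertain. Of 14 tested Fkbp genes, a family of prolyl isomerases some of which fold collagen, 5 rose and 0 fell. Of 41 collagen chains 11 rose and 3 fell, against 5.28% and 4.96% of all genes.

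Of 6 tested Akr1c genes, which act on steroids, 3 fell and 5 were negative. Of 18 tested Mup genes 1 fell, near the 4.96% of all genes, and of 13 Slc7a amino acid transporters 0 were called by edgeR's test, with 12 negative values and a median of -0.11.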
